A study of Mus musculus with 18 samples.

Results

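Regulatory T cells (TR) that were negative for the Id3 reporter and labelled as effector cells (Id3- eTR) were compared between peripheral lymph node and spleen. The comparison holds 6 of the 18 libraries of the series: every count library labelled Id3- eTR, 3 from lymph node and 3 from spleen. Each mouse, numbered 84, 86 or 87, gave 1 library of each tissue, so every lymph node library has a spleen partner from the same animal. The mice were C57BL/6 littermates that carried Id3-GFP and Foxp3-mRFP, so a cell that uses Id3 fluoresces green and a cell that uses Foxp3 red, and this holds for all groups. Both groups of Id3- eTR, and the Id3+ eTR and Id3+ central TR (Id3+ cTR) of the same mice and tissues that are used for comparison, were enriched with CD4 beads. They were then sorted by Foxp3 and Id3 reporter, surface markers that included CD44 and CD4, and viability, 500 cells per library. RNA was amplified with the SMART-Seq v4 kit and made into libraries with a modified NexteraXT protocol. The label of Id3- eTR states no gate on activation markers, and age, sex and the nodes pooled as peripheral are not given in the sources used here. By its title, the study used Id3 to follow steps by which TR become tissue-resident, and the comparison asks how far Id3- eTR of 2 lymphoid organs differ.

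TR hold back immune responses. Foxp3 is their lineage factor, and Id3 blocks E proteins, transcription factors of lymphocyte development. Effector TR are the fraction that has met antigen, and they change their integrins, selectin ligands and chemokine receptors to enter tissues. Integrins that contain the alpha4 chain bind VCAM-1 or MAdCAM-1 on vessel walls, and CD103, the alpha chain encoded by Itgae, holds T cells at E-cadherin on epithelium.

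Library totals ran from 2574681 to 2815399 counts in lymph node and from 2164402 to 2853467 in spleen, with 14587 to 14689 genes detected in lymph node and 14559 to 14751 in spleen. The most abundant gene of a library, Ptprc or Malat1, held 4093 to 4696 counts, which is 0.148% to 0.189% of the library. The sources used here do not say how duplicate reads were treated, and the part of this low ceiling in the fold changes of abundant genes was not tested. In the titles, library numbers run through all spleen libraries before the first lymph node one, so library order and tissue cannot be told apart. Levels are given as CPM, the counts of a gene relative to the library total after TMM scaling, and values of 3 libraries are in the order of mice 84, 86 and 87. Changes are log2 fold changes ± SE, lymph node over spleen, from 1 edgeR quasi-likelihood fit to all 18 libraries. This fit had the 6 groups as terms and no block on the mouse, so it did not use the pairing. A gene was called at a Benjamini-Hochberg adjusted p under 0.05 over the 12445 genes tested. In bulk RNA of 500 cells, fewer cells of a kind and less RNA per cell cannot be told apart.

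The transcripts of Id3, Foxp3, Cd44 and Cd4, which the sort used, gave no call between the tissues. Id3 stood at 61.3, 83.7 and 69.2 CPM in lymph node and at 45.3, 70.2 and 60.1 CPM in spleen. Id3+ eTR averaged 296 ± 7.65 CPM in lymph node and 248 ± 38.4 CPM in spleen (SD, n = 3 each), so the reporter and the transcript went together. Foxp3 stood at 276, 308 and 271 CPM in lymph node and at 296, 254 and 261 CPM in spleen, a log2 change of 0.07 ± 0.14 (adjusted p = 0.992). Cd44 (0.54 ± 0.24) and Cd4 (-0.36 ± 0.16) did not pass the test either, with adjusted p-values of 0.578 and 0.595. Of Id3, Foxp3, Cd44 and Cd4, edgeR, DESeq2 and limma-voom called 0, and Cd44 and Cd4 had an unadjusted p under 0.05.

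Between the tissues, 38 of the 12445 genes were called (0.305%), 18 higher (0.145%) and 20 lower (0.161%) in lymph node Id3- eTR, and 984 genes had an unadjusted p under 0.05. The genes higher in lymph node included the integrin chain Itgae, the adhesion molecule Jaml, the glycan enzyme Gcnt1 and the costimulatory receptor Icos. Those lower in lymph node included the integrin chain Itga4, the ATP receptor P2rx7, its modifier Art2b and the GTPases Gimap7 and Gimap8. Each of the 38 went the same way in 3 of 3 mice with no overlap between the tissues, a separation that 14.9% of all genes tested also showed. Among the 32 called genes with counts in both tissues, the absolute log2 change ran from 0.48 to 4.31. The median log2 change of all genes tested was 0.00417.

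The count of calls depended on single libraries, on the tool, and on the libraries and the mouse block in the fit. It was 15 without the lymph node library of mouse 84, 19 without that of mouse 87, and 22 and 21 without the spleen libraries of mice 84 and 86. DESeq2 called 145 genes, all 38 among them. By limma-voom 74 genes were called, with only 24 of the 38 among them. Calls of 9 genes remained with any 1 of the 6 libraries left out: Itga4, P2rx7, Gcnt1, Jaml, Apol9a, Nsg2, Vim, Gimap7 and Abcb1a. A fit to the 6 libraries compared alone called 23 genes, 13 of the 38 among them. With the mouse as a block, that fit called 1 gene, Itga4.

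**Figure D1:**
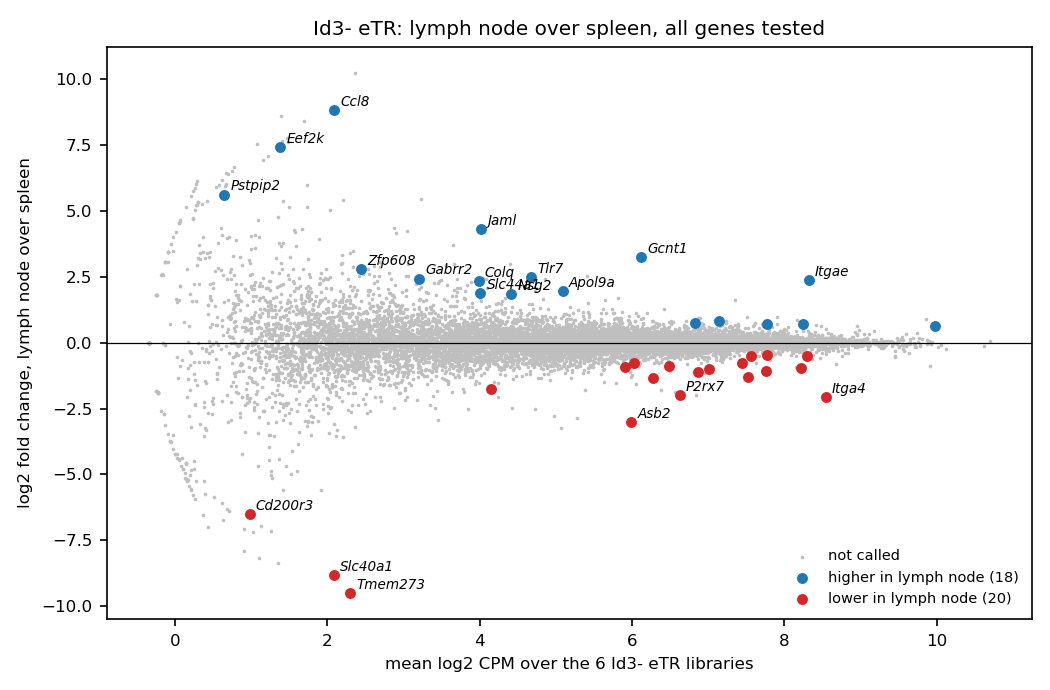
Log2 fold change, lymph node over spleen, of every gene tested in Id3- eTR (y axis) against its mean log2 CPM over the 6 libraries (x axis). The 18 genes called higher in lymph node are blue and the 20 called lower are red. Icos, the called gene of the highest level, lies at 0.64, and the called genes farthest from 0 had no count in 1 tissue.

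The call with the lowest adjusted p was Itga4, the alpha4 integrin chain. It stood at 164, 217 and 169 CPM in lymph node, against 729, 830 and 732 CPM in spleen. The highest lymph node value was far below the lowest spleen value, and the log2 change was -2.06 ± 0.12 (adjusted p = 8.35e-08). Itga4 was the only one of the 38 calls that remained under every alternative tried, with adjusted p up to 0.00657. On the opposite strand its exons overlap those of Cerkl, which held 231 counts over the 6 libraries where Itga4 held 7380. The chains that pair with alpha4 gave no call: Itgb1 averaged 419 ± 37.9 CPM in lymph node and 441 ± 23.7 CPM in spleen, and Itgb7 530 ± 8.84 CPM in lymph node and 575 ± 62.0 CPM in spleen (SD, n = 3 each).

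Itgae was opposite in direction. It stood at 799, 733 and 693 CPM in lymph node, against 202, 127 and 99.8 CPM in spleen, a log2 change of 2.38 ± 0.42 (adjusted p = 0.0185). The call was lost without the lymph node library of mouse 84 (adjusted p = 0.079) or 87 (0.0557), and without the spleen library of mouse 86 (0.101) or 87 (0.0994). Jaml, a junctional adhesion molecule that binds its ligand CAR on epithelium, stood at 84.1, 45.7 and 71.7 CPM in lymph node and far lower in spleen, at 4.68, 3.30 and 2.08 CPM. At 4.30 ± 0.67 (adjusted p = 0.00907) its log2 change was the largest among called genes with counts in both tissues. Of the 24 tested genes of the integrin and adhesion list, 2 were higher in lymph node (Itgae and Jaml) and 1 lower (Itga4). DESeq2 called 3 higher and 2 lower. Over all 12445 genes tested, edgeR called 18 higher and 20 lower, and DESeq2 76 higher and 69 lower. Of the 24 listed genes 7 had an unadjusted edgeR p under 0.05, as did 984 of all genes tested. The list's median log2 change was -0.07.

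Gcnt1 encodes the enzyme that branches core O-glycans, a step in making P-selectin ligands on T cells. It stood at 231, 229 and 215 CPM in lymph node, against 14.4, 43.3 and 13.9 CPM in spleen (log2 change 3.26 ± 0.50, adjusted p = 0.00907). The lymph node libraries lay close together, and mouse 86 was the highest of the spleen libraries. Gcnt1 was the single edgeR and limma-voom call among 12 tested genes of the selectin list, where DESeq2 called 2, both higher. Selplg, the protein that carries these glycans, averaged 687 ± 14.3 CPM in lymph node and 660 ± 74.2 CPM in spleen. Fut7, which adds the fucose that selectins recognise, stood at 57.0, 47.9 and 28.9 CPM in lymph node and at 7.55, 31.1 and 10.4 CPM in spleen, and these ranges overlapped.

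**Figure D2:**
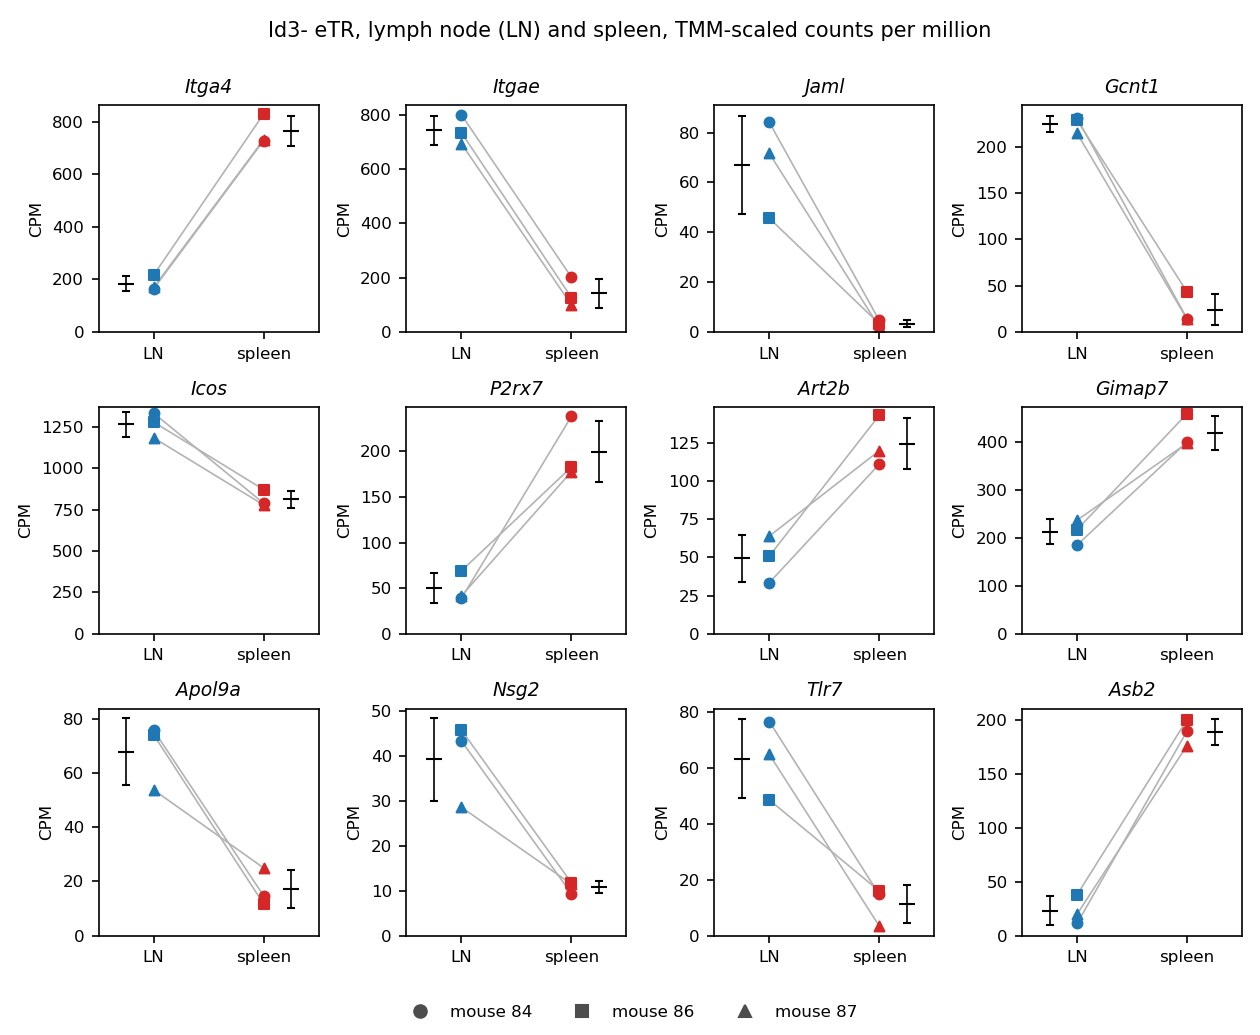
CPM (y axes, from 0) of 12 genes called between the tissues in each of the 6 Id3- eTR libraries, lymph node (LN, blue) left of spleen (red). Lines join the libraries of a mouse, and bars beside the points give mean ± SD (n = 3). In every panel the 3 lymph node points stand apart from the 3 spleen points.

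Of 17 chemokine receptors tested, edgeR called 0, DESeq2 1 and limma-voom 3, and 5 had an unadjusted p under 0.05. Of all 12445 genes, DESeq2 called 145 and limma-voom 74, and 984 had an unadjusted edgeR p under 0.05. Ccr9, the receptor for the gut and thymus chemokine CCL25, stood at 1.97, 13.2 and 0 CPM in lymph node, against 27.0, 44.7 and 44.5 CPM in spleen (adjusted p = 0.204). Ccr10 went the other way, at 37.3, 24.8 and 34.6 CPM in lymph node and 10.8, 0.942 and 6.26 CPM in spleen (adjusted p = 0.641). Neither gene overlapped between the tissues, as held for 14.9% of all genes tested. Of 20 receptors of egress and lipid signals, edgeR called 0, DESeq2 2 and limma-voom 1, and 5 had an unadjusted p under 0.05. S1pr1, which guides T cells out of lymphoid organs, averaged 258 ± 13.9 CPM in lymph node and 246 ± 35.0 CPM in spleen. These and all other genes given without a call were chosen after their values were seen.

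On the list of effector TR genes, edgeR and DESeq2 called 2 of 24, Icos and Itgae, both higher in lymph node. On this list limma-voom called 5 higher and 2 lower. Over all 12445 genes tested, edgeR called 18 higher and 20 lower, DESeq2 76 and 69, and limma-voom 40 and 34. With only the libraries compared in the edgeR fit, 3 listed genes were higher and 1 lower, where 10 of all genes were higher and 13 lower. At an unadjusted p under 0.05, 7 listed genes were higher and 2 lower, where 502 of the 12445 genes tested were higher and 482 lower. The list's median log2 change was 0.23. Icos encodes a costimulatory receptor that sustains effector TR. It stood at 1332, 1278 and 1183 CPM in lymph node and at 788, 871 and 778 CPM in spleen (log2 change 0.64 ± 0.10, adjusted p = 0.0113). The adjusted p rose just above the threshold without the spleen library of mouse 84 (0.0523) or 87 (0.0519), and to 0.0679 without the lymph node library of mouse 84. Klf3, a Krüppel-like repressor, was the single edgeR and limma-voom call among 19 central and recirculating genes, and was lower, while DESeq2 called 1 higher and 1 lower. Klf3 stood at 128, 162 and 108 CPM in lymph node and at 218, 259 and 208 CPM in spleen (-0.78 ± 0.15, adjusted p = 0.029). Icos was also the single call among 19 costimulatory and TNF receptor genes. The Klf3 call was lost without the lymph node library of mouse 84 (0.136) or 87 (0.142) and without the spleen library of mouse 84 (0.0614) or 86 (0.118).

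Among genes that did not pass the test, Lrrc32, Itgb8 and Tgfbr1 bear on TGF-beta and had lymph node values above all spleen values, a separation of the tissues that 14.9% of all genes tested also showed. Lrrc32, which encodes GARP, the anchor of latent TGF-beta on TR, stood at 124, 152 and 136 CPM in lymph node and at 66.5, 32.5 and 68.1 CPM in spleen (1.29 ± 0.28, adjusted p = 0.0595). Itgb8, the integrin chain that releases TGF-beta from that complex, stood at 209, 213 and 186 CPM in lymph node and at 131, 78.6 and 130 CPM in spleen (0.84 ± 0.23, adjusted p = 0.185). Tgfbr1, a receptor chain, averaged 338 ± 55.6 CPM in lymph node and 170 ± 8.07 CPM in spleen (0.99 ± 0.23, adjusted p = 0.097). Of 12 tested TGF-beta response genes, 1 was called (Itgae, which this cytokine induces), DESeq2 called 2, 10 had a positive log2 change and the median was 0.38, where 6304 of the 12445 genes tested were positive.

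Of 18 genes of suppressive function, edgeR called 0 (7 with an unadjusted p under 0.05), and DESeq2 and limma-voom called 2 each. Over all 12445 genes 984 had such an unadjusted p, and DESeq2 called 145 and limma-voom 74. The list's median log2 change was 0.44. Gzmb, a protease of cytotoxic granules, stood at 312, 251 and 310 CPM in lymph node and at 64.4, 103 and 116 CPM in spleen (adjusted p = 0.445). Ctla4, which takes costimulatory ligands off other cells, averaged 805 ± 25.5 CPM in lymph node and 692 ± 48.0 CPM in spleen (0.22 ± 0.10, adjusted p = 0.618).

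A pair of genes that let T cells sense nucleotides outside the cell was lower in lymph node. P2rx7, an ATP-gated channel, stood at 38.9, 69.0 and 41.7 CPM in lymph node, against 238, 183 and 178 CPM in spleen (-1.998 ± 0.21, adjusted p = 0.000233). It was also the single call among 13 genes of follicular TR. Art2b encodes an enzyme on the surface of mouse T cells that uses extracellular NAD to modify and open this channel. It stood at 33.4, 50.8 and 63.8 CPM in lymph node and at 111, 143 and 120 CPM in spleen (-1.33 ± 0.22, adjusted p = 0.0124). The Art2b call was lost without the lymph node library of mouse 84 (0.0707) or the spleen library of mouse 86 (0.0629). Its neighbour Art2a-ps, with which it could share reads, averaged 16.6 ± 3.68 CPM in lymph node and 37.5 ± 10.9 CPM in spleen (adjusted p = 0.27). Of 10 tested genes of extracellular NAD and ATP sensing, a list drawn up after the values were seen, these 2 were called. The ectoenzymes Entpd1 and Nt5e, which break ATP down to adenosine, gave no call. Entpd1 averaged 137 ± 3.42 CPM in lymph node and 137 ± 13.6 CPM in spleen, and Nt5e 674 ± 52.6 CPM in lymph node and 494 ± 23.9 CPM in spleen.

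The Gimap family, GTPases that support lymphocyte survival, was lower in lymph node for 2 of its 8 tested genes. Gimap7 stood at 186, 218 and 237 CPM in lymph node, against 401, 460 and 398 CPM in spleen (-0.97 ± 0.14, adjusted p = 0.00538). Gimap8 was called with a smaller change, at 166, 201 and 189 CPM in lymph node and 265, 249.5 and 261 CPM in spleen (-0.48 ± 0.09, adjusted p = 0.0349). With the mouse as a block its adjusted p was 0.0558, and it passed the threshold when single libraries were left out only without the lymph node library of mouse 86. The other 6 genes were uncalled, with log2 changes between -0.53 ± 0.13 (Gimap4) and -0.25 ± 0.08 (Gimap1). All 8 changes were negative, with a median of -0.49. In Id3+ eTR and Id3+ cTR the 8 were negative as well, with medians of -0.33 and -0.35. The family was chosen after its values were seen, so these counts describe it and test nothing.

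Outside the lists, the gene called in all 3 TR populations was Apol9a, an apolipoprotein L gene that interferon induces in mice. It stood at 75.8, 74.2 and 53.8 CPM in lymph node and at 14.8, 11.8 and 25.0 CPM in spleen (1.97 ± 0.28, adjusted p = 0.00538). Its near-identical copy Apol9b averaged 30.1 ± 3.56 CPM in lymph node and 6.43 ± 3.89 CPM in spleen (2.21 ± 0.61, adjusted p = 0.191), and reads of the 2 copies cannot be assigned with certainty. Of 27 listed interferon-stimulated genes, 0 were called by edgeR, DESeq2 or limma-voom and 0 had an unadjusted p under 0.05.

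Nsg2, an endosomal protein of neurons, stood at 43.2, 45.7 and 28.5 CPM in lymph node, against 9.35, 11.8 and 11.5 CPM in spleen (1.85 ± 0.23, adjusted p = 0.00142). Colq, the collagen-like tail of acetylcholinesterase, stood at 31.8, 38.4 and 31.4 CPM in lymph node and at 6.83, 4.71 and 8.34 CPM in spleen (2.33 ± 0.38, adjusted p = 0.0113). Gabrr2, a GABA receptor chain, stood at 25.1, 16.4 and 25.7 CPM in lymph node and at 5.04, 0.471 and 6.26 CPM in spleen (2.43 ± 0.40, adjusted p = 0.0113). Colq was lost without the spleen library of mouse 84 (0.0523) or 86 (0.0629), and Gabrr2 without the lymph node library of mouse 84 (0.0523). By limma-voom Nsg2 (adjusted p = 0.0528), Colq (0.0518) and Gabrr2 (0.0806) were not called. With only the libraries compared in the edgeR fit, they were at 0.101, 0.0543 and 0.279. What these proteins do in TR is not known from these data.

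Tlr7, the endosomal sensor of single-stranded RNA, stood at 76.6, 48.6 and 64.9 CPM in lymph node and at 14.8, 16.01 and 3.48 CPM in spleen (2.49 ± 0.48, adjusted p = 0.0349). Leaving out any single library except the lymph node one of mouse 86 ended this call, with adjusted p-values between 0.0629 and 0.132. Vim, the intermediate filament vimentin, had a smaller but steadier difference, at 435, 342 and 381 CPM in lymph node and 232, 224 and 255 CPM in spleen (0.70 ± 0.10, adjusted p = 0.00789). The remaining called genes higher in lymph node with counts in both tissues were Zfp608 (2.80 ± 0.52), the choline transporter Slc44a1 (1.89 ± 0.31), Ahcyl2 (0.82 ± 0.16), the secreted matrix protein Ecm1 (0.73 ± 0.15) and the cofilin phosphatase Ssh2 (0.72 ± 0.14). Their adjusted p-values lay between 0.0113 (Slc44a1) and 0.0432 (Ecm1), and with the mouse as a block Ahcyl2 was at 0.0506. Each of these 5 was lost without at least 3 of the 6 single libraries, at adjusted p-values between 0.0537 and 0.162.

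On the lower side, Asb2 had the largest change among called genes with counts in both tissues. It encodes the substrate arm of a ubiquitin ligase that removes filamins. Asb2 stood at 11.4, 38.0 and 19.96 CPM in lymph node, against 189.6, 200.1 and 176 CPM in spleen (-3.02 ± 0.50, adjusted p = 0.0115), and was lost without the lymph node library of mouse 84 (0.0707) or 87 (0.0775). Abcb1a, the drug efflux pump P-glycoprotein, stood at 88.8, 139 and 128 CPM in lymph node and at 288, 272 and 309 CPM in spleen (-1.29 ± 0.20, adjusted p = 0.00907). Its paralogue Abcb1b was at 0.04 ± 0.59 (adjusted p = 1). Nrip1, a corepressor of nuclear receptors, stood at 120, 174 and 156 CPM in lymph node and at 302, 343 and 294 CPM in spleen (-1.06 ± 0.16, adjusted p = 0.00907). Without the lymph node library of mouse 84 its adjusted p was 0.0535.

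The other called genes lower in lymph node with counts in both tissues were Enpp4, an ectophosphodiesterase (-1.76 ± 0.33), Zcchc18 (-1.01 ± 0.20), the tetraspanin Cd9 (-0.94 ± 0.17), the corepressor Irf2bp2 (-0.90 ± 0.18) and the actin regulator Evl (-0.79 ± 0.13). Tagln2, an actin-binding transgelin, and the acid phosphatase Acp5 were both at -0.50 ± 0.10. The last of them, Gm4956, is annotated as a transcribed pseudogene, so its reads may belong to a relative (-1.11 ± 0.18, adjusted p = 0.0113). Evl overlaps Degs2 on the opposite strand, which held 68 counts against 1056. With the mouse as a block Irf2bp2 (adjusted p = 0.0639), Tagln2 (0.0731) and Acp5 (0.051) were no longer called. Without single libraries Zcchc18, Irf2bp2, Tagln2 and Acp5 were each lost in 5 of 6 fits, Enpp4 in 4, Cd9 and Evl in 3, and Gm4956 in 1, at adjusted p-values between 0.0542 and 0.194.

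For 6 called genes 1 tissue held no count at all, so only a lower bound of the fold can be given, with 3 counts over the group in place of 0. Slc40a1, the iron exporter ferroportin, stood at 0 in all 3 lymph node libraries and at 19.1, 29.7 and 18.4 CPM in spleen, at least 58.5-fold lower in lymph node (adjusted p = 0.0283). It was the single call among 19 iron and heme genes. It passed the threshold neither with the mouse as a block (0.0612) nor without any single library (0.0571 to 0.0894). Tmem273 was at least 88.7-fold lower and Cd200r3 at least 12.5-fold lower in lymph node. The chemokine gene Ccl8 stood at 25.1, 22.3 and 18.9 CPM in lymph node and at 0 in spleen, at least 57.1-fold higher (adjusted p = 0.0159). Eef2k, a kinase that slows protein elongation, and the adaptor Pstpip2 were higher in lymph node, Eef2k at least 21.5-fold and Pstpip2 at least 6.09-fold. Each was lost with at least 3 single libraries left out, and Eef2k, Pstpip2 and Cd200r3 with each of the 6, at adjusted p-values between 0.0503 and 0.148.

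Ferroportin is abundant in the iron-recycling macrophages of the splenic red pulp, and some genes of such macrophages, none of them called, are given beside it. Spic, their transcription factor, stood at 0, 1.10 and 0 CPM in lymph node and at 30.6, 0.942 and 7.99 CPM in spleen. Vcam1 stood at 0, 0.731 and 2.14 CPM in lymph node and at 6.83, 0 and 15.99 CPM in spleen, and Cd5l at 0 in lymph node and at 8.63, 0 and 10.4 CPM in spleen. The spleen library of mouse 86 had the highest Slc40a1 of the 3 and held Spic at 0.942 CPM with Vcam1, Cd5l and Adgre1 at 0. Heme oxygenase Hmox1 overlapped between the tissues, at 13.8, 32.5 and 15.3 CPM in lymph node and 68.0, 27.8 and 43.4 CPM in spleen. Macrophages are among the sources of Ccl8. Lyz2, a lysozyme gene of myeloid cells that was not called, stood at 77.8, 137 and 104 CPM in lymph node and at 20.1, 26.8 and 8.34 CPM in spleen (adjusted p = 0.548). Of the 13 tested genes of the myeloid list 3 had a positive log2 change, Lyz2 among them, and the median was -0.46. Over the whole myeloid list the summed level ran from 381 to 423 CPM in lymph node and from 339 to 424 CPM in spleen. None of the 13 was called by edgeR, DESeq2 or limma-voom. An unadjusted p under 0.05 was reached by 4, and by 984 of the 12445 genes tested. S100a8 and S100a9 were at 0 in all 6 libraries. The part of these markers in the results for Slc40a1 and Ccl8 was not tested.

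Hemoglobin transcripts were found in spleen only. Hbb-bs stood at 0 in all lymph node libraries and at 2.88, 2.83 and 42.4 CPM in spleen. The 4 hemoglobin genes together held 0 counts in each lymph node library and 23, 11 and 305 counts in spleen. The spleen Id3- eTR library of mouse 87 thus held most of them. None of the 4 was called by edgeR (adjusted p = 0.19 for Hbb-bs, all 4 with an unadjusted p under 0.05) or limma-voom, and 2 were called by DESeq2. Erythroid and platelet markers summed to 127 to 146 CPM in lymph node and 176 to 242 CPM in spleen, with 0 of 8 called by edgeR or limma-voom, 1 by DESeq2 and 3 at an unadjusted p under 0.05. Without the spleen Id3- eTR library of mouse 87 alone, 28 genes were called, 22 of them also called with it kept. Without all libraries of mouse 87, an alternative added after seeing the data, 4 genes were called: Itga4, P2rx7, Apol9a and Nsg2. That fit had fewer libraries in every group, so its count cannot be tied to the hemoglobin transcripts. The part of red cell RNA in the other calls was not tested.

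**Figure D3:**
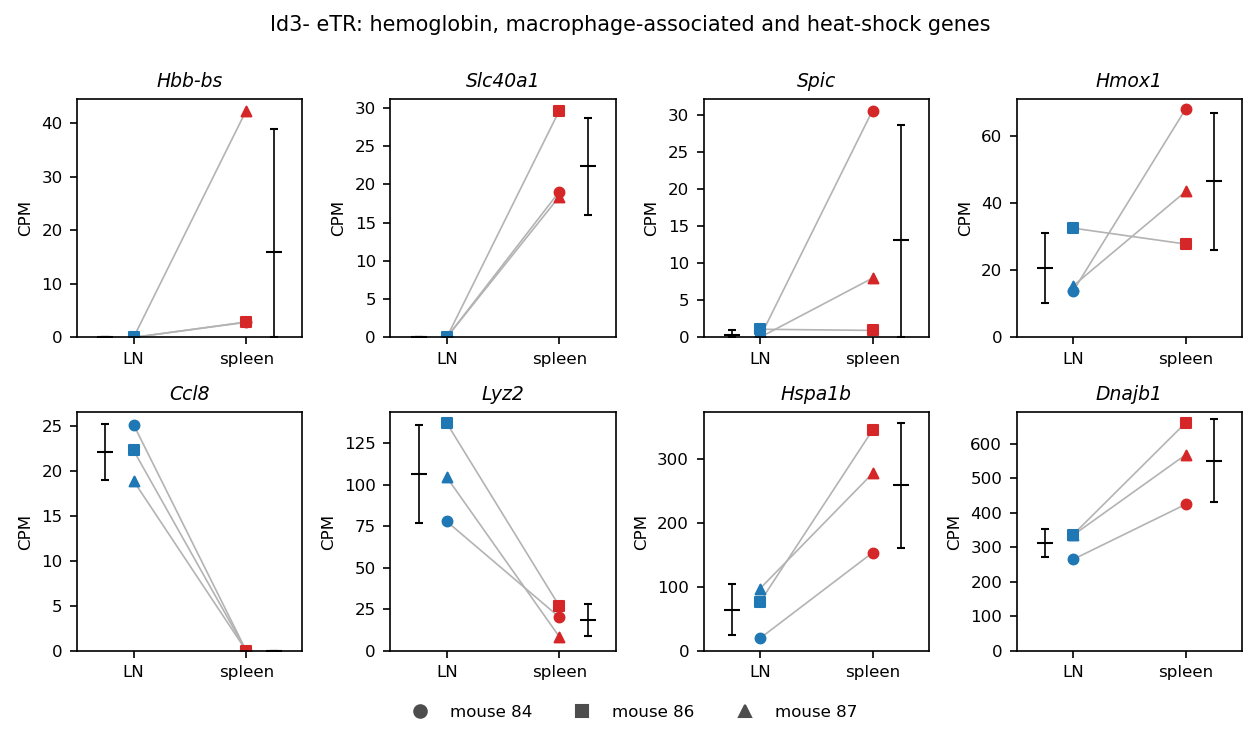
CPM (y axes, from 0) of a hemoglobin gene, of 5 genes linked to macrophages and of 2 heat-shock genes in each of the 6 Id3- eTR libraries, lymph node (LN, blue) left of spleen (red). Lines join the libraries of a mouse, and bars give mean ± SD (n = 3). Hbb-bs is highest in the spleen library of mouse 87 and Spic in that of mouse 84. Slc40a1 is present in all 3 spleen libraries.

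Markers of other cell kinds gave no edgeR call, with 2 genes each at an unadjusted p under 0.05 among B cell, CD8 T and NK cell and conventional CD4 T cell markers, and 1 stromal gene. The genes tested were 13, 6, 8 and 2 in this order, and 984 of all 12445 had such a p-value. DESeq2 called 1 conventional CD4 T cell marker and limma-voom 0 in these lists. B cell markers summed to 1241 to 1345 CPM in lymph node and 1235 to 1326 CPM in spleen, with Pax5 and Fcer2a at 0 throughout. Markers of CD8 T and NK cells summed to 234 to 336 CPM in lymph node and 345 to 391 CPM in spleen, with Ncr1, Klra4 and Klra8 at 0 in all libraries. Markers of conventional CD4 T cells ran from 596 to 674 CPM in lymph node and from 527 to 661 CPM in spleen. Of 13 stromal and endothelial markers in the table, 8 were at 0 in all 6 libraries.

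Calls of heat-shock genes depended on the fit. Hspa1b, which encodes an inducible chaperone, stood at 19.3, 76.0 and 97.0 CPM in lymph node and at 153, 345 and 277 CPM in spleen (-2.005 ± 0.51, adjusted p = 0.138). In both tissues mouse 84 was the lowest, and with the mouse as a block the adjusted p was 0.00182. Dnajb1, its partner, stood at 264, 336 and 335 CPM in lymph node and at 424, 661 and 568 CPM in spleen (-0.82 ± 0.18, adjusted p = 0.0595, and 0.00624 with the block). Of 20 heat-shock and unfolded protein genes, the fit without the block called 0 and the fit with it 5, all lower: Hspa1b, Dnajb1, Hspa1a, Hsph1 and Hsp90aa1. Over all genes the fit with the block called 43 (0.346%), 24 of them lower (0.193%). A fit with the block to the 6 Id3- eTR libraries alone called 0 of the 20, and 1 gene in all. DESeq2 called 5 lower and limma-voom 0. At an unadjusted p under 0.05, 3 were higher and 9 lower, where 502 of the 12445 genes tested were higher and 482 lower. The 3 that pointed up, Xbp1, Herpud1 and Dnajb9, act in the unfolded protein response of the endoplasmic reticulum.

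Immediate-early genes, which switch on within minutes of stimulation or of tissue handling, showed no call of edgeR or limma-voom among 25 tested, and 1 call of DESeq2. Of the 25, 8 had an unadjusted p under 0.05, as did 984 of the 12445 genes tested. Fos stood at 742, 726 and 755 CPM in lymph node and at 684, 1008 and 757 CPM in spleen (-0.14 ± 0.13). Egr1 stood at 123, 52.6 and 82.0 CPM in lymph node and at 162, 199 and 211 CPM in spleen (-1.15 ± 0.31, adjusted p = 0.185). The list's median was -0.15, with 6 of 25 positive, and its sum ran from 7101 to 7410 CPM in lymph node and from 7293 to 8844 CPM in spleen. Heat-shock and immediate-early RNA can change during preparation, and their part in the other differences was not tested. With the immediate-early genes, the hemoglobin genes and the 50 densest genes left out of the scaling, 43 genes were called, all 38 among them. The heat-shock list was not left out of the scaling.

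Proliferation genes had the highest median of the lists with at least 5 tested genes, 1.21, with 30 of 32 positive. No member was called by edgeR or limma-voom, DESeq2 called 2, and 8 had an unadjusted p under 0.05, as did 984 of the 12445 genes tested. Mki67 stood at 201, 111 and 151 CPM in lymph node and at 129, 54.6 and 86.2 CPM in spleen (0.77 ± 0.41, adjusted p = 0.711). Ccnb2, a cyclin of mitosis, stood at 111, 31.8 and 59.2 CPM in lymph node and at 4.32, 0 and 0 CPM in spleen (adjusted p = 0.22). The list's sum ran from 1648 to 2497 CPM in lymph node and from 1086 to 1517 CPM in spleen. In Id3+ eTR 27 of the 32 were positive with a median of 1.44, and in Id3+ cTR 24 with a median of 0.59.

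Lists of core TR, tissue TR, helper lineage, NF-kB, T cell receptor-induced, glucocorticoid, clock and glycolysis genes, of E and Id proteins and of cytokine receptors held no edgeR call, with 1 to 10 genes each at an unadjusted p under 0.05. DESeq2 called 3 cytokine receptor, 3 T cell receptor-induced, 2 core TR and 1 helper lineage gene, and limma-voom 4 cytokine receptor, 2 tissue TR and 1 T cell receptor-induced gene. Their medians lay between -0.07 (T cell receptor-induced genes) and 0.25 (E and Id proteins). Of 29 cytokine receptor genes 10 had an unadjusted p under 0.05, and of 14 core TR genes 7, where 984 of the 12445 genes tested did. Of 18 sterol and lipid synthesis genes edgeR and limma-voom called 0 and DESeq2 1, and 3 had an unadjusted p under 0.05. Sqle, squalene epoxidase, missed the threshold at -2.05 ± 0.42 (adjusted p = 0.0504) and passed it with the mouse as a block (0.026).

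**Figure D4:**
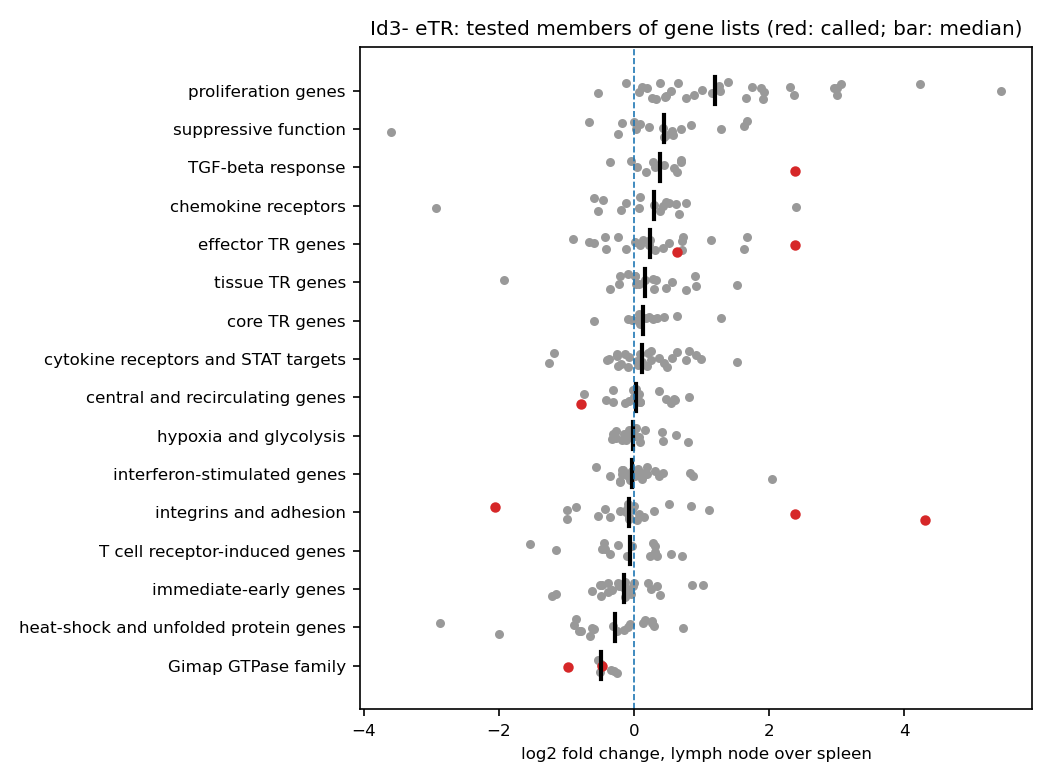
Log2 fold change, lymph node over spleen, of each tested member of 16 gene lists in Id3- eTR (x axis), 1 list per row, roughly in the order of the medians. Called genes are red, others grey, and the median is a black bar. The dashed line marks the median of all genes tested, 0.00417. In the lists without calls the medians run from -0.284 (heat-shock and unfolded protein genes) to 1.21 (proliferation genes). Proliferation genes lie mostly to the right and all 8 Gimap genes to the left.

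The same tissue difference was then set beside that of Id3+ eTR and Id3+ cTR, which come from the same 3 mice but from other libraries. Lymph node and spleen differed by 36 called genes in Id3+ eTR (0.289%) and by 1 in Id3+ cTR (0.00804%), with 1477 and 967 genes at an unadjusted p under 0.05. Id3- and Id3+ eTR shared 11 calls, 28.9% of the 38 and 30.6% of the 36, all in the same direction. Of the 36, 14 were higher (0.112%) and 22 lower (0.177%) in lymph node. The shared calls were Gcnt1, Apol9a and Icos, higher in lymph node, and Itga4, Art2b, Gimap7, Gimap8, Nrip1, Klf3, Asb2 and Slc40a1, lower. Apol9a was the call in Id3+ cTR too, at 2.18 ± 0.28 in Id3+ eTR and 2.08 ± 0.29 in Id3+ cTR. The call of Apol9a in Id3+ cTR was lost with DESeq2, with limma-voom and without the Id3+ cTR library of mouse 84 or 87 from either tissue. DESeq2 called 108 other genes in Id3+ cTR, 104 of them lower in lymph node, and 200 genes in Id3+ eTR. Fits to only the libraries compared called 6 genes in Id3+ cTR and 0 in Id3+ eTR, so the order of the 2 populations depended on the fit. With single libraries left out, 5 to 46 genes were called in Id3+ eTR and 0 to 15 in Id3+ cTR. Of the 38 genes, 33 had the same sign in Id3+ eTR and 32 in Id3+ cTR, and 34 and 36 had a smaller absolute change there. The 38 were chosen for their change in Id3- eTR, and the share of all genes with the same sign is not given here. Without spleen Id3+ cTR of mice 84 and 87 and spleen Id3+ eTR of mouse 84, which have the 2 lowest totals and the highest total of the series (1600782, 1684461 and 3153325 counts), 71 genes were called in Id3- eTR, with 37 of the 38 among them, and 9 in Id3+ eTR.

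**Figure D5:**
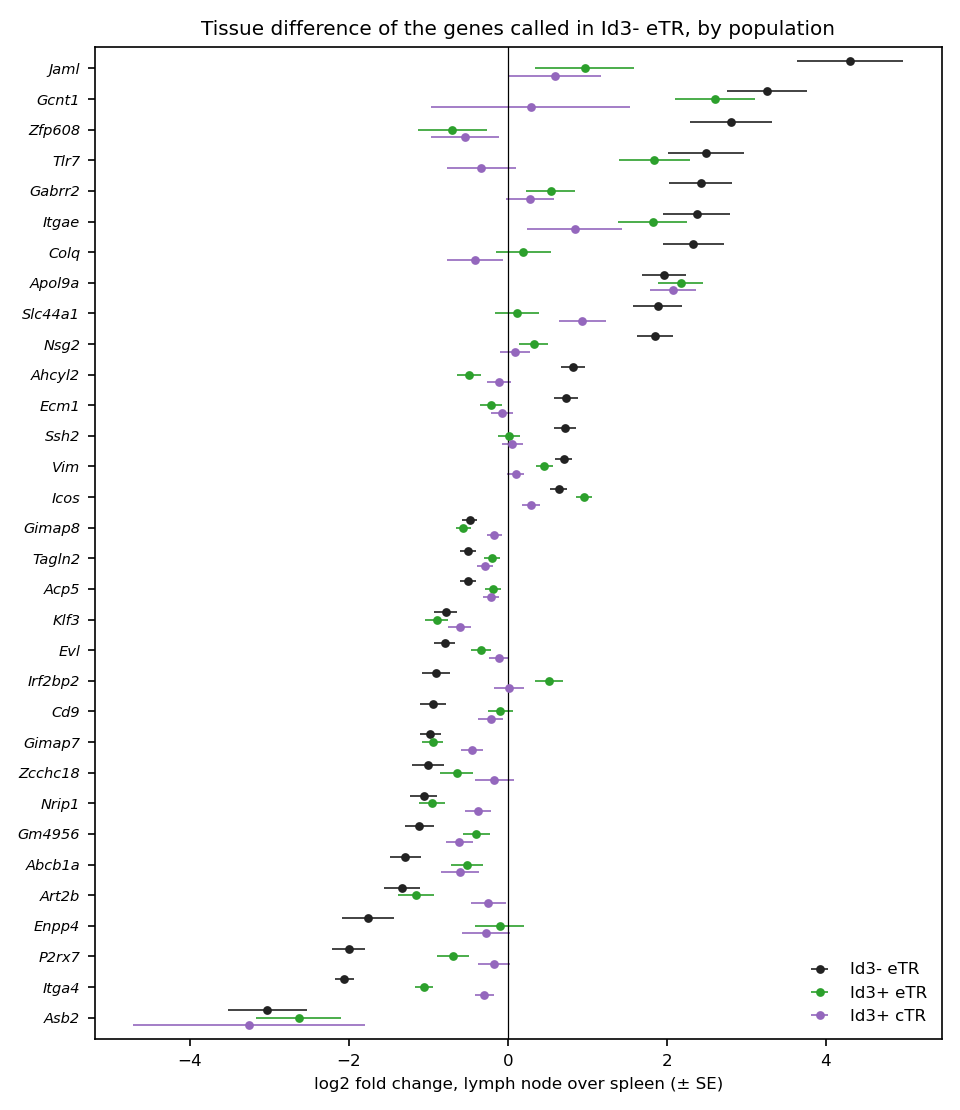
Log2 fold change ± SE, lymph node over spleen (x axis), of the 32 genes called in Id3- eTR with counts in both tissues, in Id3- eTR (black), Id3+ eTR (green) and Id3+ cTR (purple). The genes were chosen for their change in Id3- eTR, so black points lie far from 0 by choice. Apol9a, Asb2 and Klf3 lie on one side of 0 in all 3 populations, and Zfp608, Ahcyl2 and Irf2bp2 lie on opposite sides in Id3- and Id3+ eTR.

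The difference between these tissue effects was tested gene by gene. Against Id3+ cTR, edgeR called 3 genes (0.0241%; 856 with an unadjusted p under 0.05), each with a more negative change in Id3- eTR. For Itga4 the change was -2.06 ± 0.12 in Id3- eTR and -0.30 ± 0.12 in Id3+ cTR, a difference of -1.76 (adjusted p = 0.000109; 3.51e-05 to 0.000918 with single libraries left out). In lymph node Itga4 averaged 183 ± 28.9 CPM in Id3- eTR, 302 ± 16.7 in Id3+ eTR and 402 ± 8.93 in Id3+ cTR. In spleen the order was turned round, with 764 ± 57.3 CPM in Id3- eTR, 629 ± 93.6 in Id3+ eTR and 494 ± 39.7 in Id3+ cTR (SD, n = 3 each), though the SD ranges of Id3- and Id3+ eTR overlapped.

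P2rx7 differed by -1.83 from its change in Id3+ cTR, which was -0.17 ± 0.20 (adjusted p = 0.038). In lymph node it averaged 49.9 ± 16.6 CPM in Id3- eTR, against 116 ± 12.5 CPM in Id3+ cTR, and in spleen 200 ± 33.6 CPM in Id3- eTR, against 130 ± 20.9 CPM in Id3+ cTR. Cdca7l, a partner of MYC, differed by -1.73 (adjusted p = 0.038), with -0.54 ± 0.19 in Id3- eTR and 1.19 ± 0.20 in Id3+ cTR, neither of them called. Both calls remained without the spleen Id3- eTR library of mouse 86 (adjusted p = 0.0407 each). P2rx7 also remained without the lymph node Id3- eTR library of mouse 86 (0.00228), and Cdca7l without lymph node Id3+ cTR of mouse 86 (0.0266). Each was lost without any of the other 10 libraries compared, at 0.0672 to 0.157 for P2rx7 and 0.0505 to 0.172 for Cdca7l.

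Against Id3+ eTR, edgeR called 0 genes, with 750 at an unadjusted p under 0.05, while DESeq2 called 37 and limma-voom 1. Itga4 came closest, with -1.05 ± 0.12 in Id3+ eTR and a difference of -1.002 (adjusted p = 0.0558; 0.0282 to 0.239 with single libraries left out). Ahcyl2 had the same adjusted p, with 0.82 ± 0.16 in Id3- eTR and -0.49 ± 0.15 in Id3+ eTR. For the genes called in Id3- eTR and not in Id3+ eTR, a difference between the populations was therefore not shown.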

How the data were processed

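RNA-seq counts of 18 libraries (6 groups of 3 mice) were used. The authors deposited whole-number counts per gene, unnormalized, for 37991 genes. A second deposited table of normalized signal was not used. HTSeq 0.4.1, TopHat, Bowtie, SAMtools, Picard and FastQC are named, without roles, in the submitters' processing notes. Neither genome build nor strandedness is given in the sources used here, and no position or sequence is printed. GENCODE M21 gave symbols for 32919 identifiers, and the 5072 without one held 0.891% of counts.

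Genes were kept with filterByExpr (minimum count 10, 12445 genes), scaled by TMM, and fitted with edgeR 4.0.16 in R 4.3.3 (robust quasi-likelihood, two-sided F test, 6 groups, 12 residual degrees of freedom, biological coefficient of variation 0.294). SE is the absolute log2 change divided by the root of F, and mean log2 CPM uses a prior count of 2. The procedure was tested on simulated data. Alternatives were RLE factors, no filter, DESeq2 1.42.0, limma-voom (limma 3.58.1), a mouse block, only the libraries compared, left-out libraries and other genes in the scaling. Bounds on folds take 3 counts over the group for 0 and cover counting error only.

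Mouse numbers pair the tissues because both libraries come from 1 animal. Deviations from the group means correlated at 0.0302, -0.00522 and 0.00612 for mice 84, 86 and 87, over 12445 genes. Replicate libraries differed beyond counting noise.

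The comparison, lists, tests and naming rule were chosen with earlier results of these data known. The rule named the sort genes (1 of them is not reported here), up to 2 called members per list (4 for homing and stress lists), the tested hemoglobin genes, 10 called genes each way outside the lists from a mean log2 CPM of 3 upward, and up to 4 per test between populations, without predicted genes. Of the 38 called genes it named 28. The other 10 (Gm4956, Zfp608, Gimap8, Tagln2, Acp5, Ccl8, Pstpip2, Eef2k, Cd200r3 and Tmem273) are named to complete the count. P-values measure the spread between the 3 mice of a group, pooled over groups.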

Additional observations from a re-analysis of the deposited data

Results flagged for a closer look

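In 3 genes the tissue difference of Id3- eTR differed from that of Id3+ cTR by a test of the difference itself. The difference of the log2 changes, Id3- eTR minus Id3+ cTR, was -1.76 for Itga4, -1.83 for P2rx7 and -1.73 for Cdca7l. The edgeR adjusted p-values were 0.000109, 0.038 and 0.038. The Itga4 call remained in every fit tried, whereas limma-voom gave 0.0709 for P2rx7 and 0.169 for Cdca7l.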

How the results depend on the processing

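Of the 38 calls in Id3- eTR, 32 remained with the mouse as a block and 9 with each single library left out, and no named gene changed sign in any fit. The counts below are for the tissue difference in Id3- eTR, Id3+ eTR and Id3+ cTR (38, 36 and 1 in the fit reported), then for the tests against Id3+ eTR and Id3+ cTR (0 and 3). RLE factors and leaving dense, hemoglobin and immediate-early genes out of the scaling kept all counts within 1.5 times. Without the filter they were 50, 62, 1, 4 and 4. DESeq2 gave 145, 200, 108, 37 and 47, and limma-voom 74, 48, 0, 1 and 1. Fits to only the libraries compared gave 23, 0, 6, 0 and 1, and with the replicate block 1, 0, 6, 0 and 1. The replicate block in the full fit gave 43, 30, 2, 0 and 3. Without the 3 libraries of other groups that stand apart the counts were 71, 9, 1, 1 and 2. With single libraries left out they ran from 15 to 33, 5 to 46, 0 to 15, 0 to 5 and 1 to 5. Without mouse 87, added after seeing the data, Id3- eTR gave 4. The causes were not tested, beyond fewer libraries in the reduced fits. With 3 mice and 500 cells per library, low genes are limited by counts, and an uncalled gene is not shown to be equal.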
